A study of Mus musculus with 28 samples.

Results

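The change in gene expression that 10 days in osteogenic medium brings about in cranial neural crest cells was compared between 2 oxygen levels. The cells were O9-1, an established mouse line of cranial neural crest, the embryonic population that forms much of the skull and face. Of the 28 RNA sequencing libraries of the study, 14 belong to the 4 groups that the comparison needs, and all 14 were used. Proliferating cultures were kept in medium conditioned by STO feeder cells, with 15% serum, 25 ng/ml bFGF and 5 ng/ml LIF, at 21% O2 (4 libraries) or 0.5% O2 (3 libraries). Osteoblast cultures spent 10 days in alpha-MEM with 10% serum, 10 mM beta-glycerophosphate, 0.1 µM dexamethasone and 100 ng/ml BMP-2, at 21% O2 (4 libraries) or 0.5% O2 (3 libraries). The change from proliferating to osteoblast cultures therefore joins a new basal medium, the absence of bFGF and LIF from the listed components and the addition of a glucocorticoid and a bone morphogenetic protein, at both oxygen levels alike. The labels do not say how long the proliferating cultures had been at 0.5% O2, nor whether replicates were separate cultures, so p-values measure the spread between these libraries, which may be technical. In whole cultures, fewer cells of a type and less RNA per cell cannot be told apart.

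Osteoblast differentiation is driven by RUNX2 and, downstream of it, SP7 (osterix), which switch on collagen I, alkaline phosphatase and the proteins of mineralised matrix, while cells leave the division cycle and shut down growth factor signalling. FOSL1 (FRA-1) is an AP-1 factor that growth factors induce through ERK, and it also acts in bone matrix formation. Low oxygen stabilises the HIF transcription factors, which raise glycolytic enzymes, collagen-modifying enzymes and angiogenic factors. Oxygen is also a substrate of collagen hydroxylases, lysyl oxidases and several steps of sterol synthesis.

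For each gene, the log2 change from proliferating to osteoblast cultures was taken at each oxygen level, and the change at 21% O2 was subtracted from the change at 0.5% O2. The result, below called the difference between the changes, is positive where a rise was larger or a fall smaller at 0.5% O2. All values come from 1 fit of the 14 libraries with the edgeR quasi-likelihood test, and a gene was called where its Benjamini-Hochberg adjusted p over all 15486 genes tested was under 0.05. Levels are given in CPM, counts relative to the scaled library size, library by library in replicate order, proliferating before osteoblast libraries. The labels' own terms were checked first. Postn, a matrix protein of osteogenic mesenchyme, rose from 26.9 to 18866 CPM at 21% O2 and from 20.9 to 9422 CPM at 0.5% O2. Other osteoblast markers, described below, did not all rise at 21% O2. There Runx2 did not pass the test and Spp1 fell, and Sp7, Alpl and Ibsp stood at or below 1.49, 2.76 and 0.520 CPM in the first 3 of the 4 osteoblast libraries. Of the 22 bone matrix and mineralisation genes tested, 14 rose and 7 fell on differentiation at 21% O2, and 15 rose and 5 fell at 0.5% O2 (all genes, 39.5%, 37.8%, 33.7% and 32.9%). Of the HIF targets, Bnip3, a mitophagy gene, was 4.33 log2 units higher at 0.5% O2 in proliferating and 4.32 higher in osteoblast cultures. Sox10 and Foxd3, early neural crest factors, had 0 counts in all 14 libraries.

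The libraries held 23.4 to 64.7 M counts. One of them stood apart, the fourth osteoblast library at 21% O2. Against the mean of its 3 companions, 903 genes (5.83% of those tested) differed by more than 1 log2 unit in it, 567 higher and 336 lower, while the corresponding number was 14 to 159 in the other 13 libraries. The next highest, 159, belonged to the fourth proliferating library at 21% O2. In the fourth osteoblast library 8 of the 12 chondrocyte markers tested and 11 of the 15 BMP targets and antagonists were over 1 log2 unit higher than in its companions. Counts and calls that changed by more than 1.5 times or changed sides without this library are therefore given with and without it.

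The osteoblast change differed with oxygen across much of the transcriptome. The difference between the changes was called for 8394 of 15486 genes (54.2%), 4475 positive (28.9%) and 3919 negative (25.3%), by the edgeR quasi-likelihood test with Benjamini-Hochberg adjustment. Of these, 4128 (26.7%) differed by at least 1 log2 unit, 1883 positive (12.2%) and 2245 negative (14.5%). The change itself was called for 11981 genes (77.4%) at 21% O2, 6985 of them (45.1%) with at least 1 log2 unit, and for 10312 (66.6%) at 0.5% O2, 5248 of them (33.9%) with that size. Over all genes tested the median difference was 0.00 log2 units. Without the fourth osteoblast library at 21% O2, 32.5% of 15378 genes had a positive called difference and 27.9% a negative one, the background for all counts given without it.

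The 4128 genes were sorted by what became of their change, taking a change as present where it was called with a size of at least 1 log2 unit. Most often it was lost: 1607 genes (10.4% of those tested) had such a change at 21% O2 and none at 0.5% O2, 877 of them rises and 730 falls. A further 837 genes (5.4%) kept the direction with a smaller change, 390 rises and 447 falls. The change was gained at 0.5% O2 by 739 genes (4.77%), 271 rises and 468 falls, and enlarged in the same direction for 277 (1.79%). It reversed for 165 genes (1.07%), of which 127 rose at 21% O2 and fell at 0.5% O2, and 38 did the opposite. The remaining 503 (3.25%) had no change of that size at either level. Without the fourth osteoblast library at 21% O2, 1753 genes lost, 775 gained and 193 reversed their change.

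**Figure D1:**
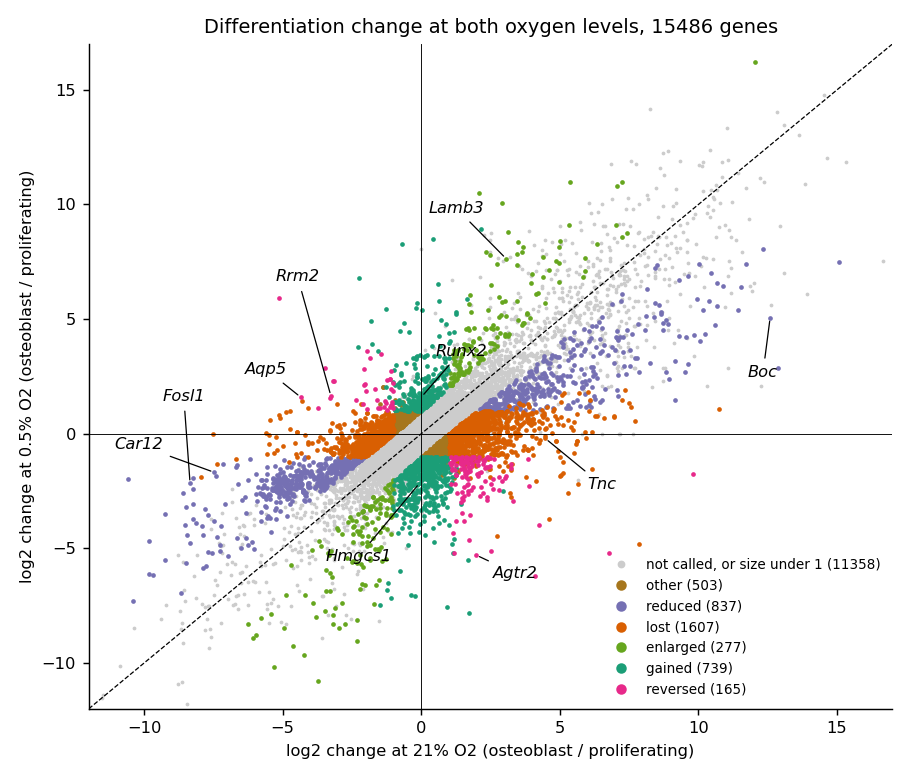
Log2 change from proliferating to osteoblast cultures at 21% O2 (x axis) and at 0.5% O2 (y axis), 1 point per gene, coloured by class, with the number of genes of each class in the legend. Genes on the dashed line changed alike at both oxygen levels; the 1607 lost changes lie along the horizontal axis and the 739 gained ones along the vertical axis.

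Runx2, the master regulator of the osteoblast lineage (chr17:44495987-44814797, minus strand, GENCODE M21 on GRCm38), gained a rise at 0.5% O2 that it did not show at 21% O2. Its level was 73.6, 70.1, 71.0 and 63.6 CPM in the proliferating and 65.5, 75.5, 74.8 and 63.6 CPM in the osteoblast libraries at 21% O2. At 0.5% O2 it was 51.0, 51.8 and 52.0 CPM in the proliferating and 139, 163 and 168 CPM in the osteoblast libraries. The groups at 21% O2 overlap, whereas every osteoblast library at 0.5% O2 lies above all other libraries and every proliferating library at 0.5% O2 below them. The log2 change was 0.01 ± 0.08 (SE) at 21% O2 and 1.60 ± 0.09 at 0.5% O2, a difference of 1.60 ± 0.12 (edgeR quasi-likelihood test, Benjamini-Hochberg adjusted p = 2.91e-08), and 1.56 without the fourth osteoblast library at 21% O2.

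Of the 12 osteoblast transcription factors listed, 5 had a positive called difference and 0 a negative one (all genes, 28.9% and 25.3%), with a median of 0.43. Bhlhe40, a HIF-responsive repressor, gained a rise like Runx2, with a log2 change of -0.23 at 21% O2 and 1.36 at 0.5% O2. The differences of Cbfb, the DNA-binding partner of RUNX2, of Atf4, which acts in the mature osteoblast, and of Sp3 were smaller, at 0.62, 0.42 and 0.44. Scaled by library size alone, that of Atf4 was 0.30 and not called. Mef2c, a regulator of bone formation, differed by -0.09 and was not called. The homeobox genes Dlx5, Dlx6 and Dlx3 had 0, 0 and 1 counts in the 4 proliferating libraries at 21% O2 together, and their differences were not called.

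Sp7, the factor that commits cells to the osteoblast, showed how much rests on 1 library. In proliferating libraries it was at 0.118, 0.159, 0.182 and 0.191 CPM at 21% O2 and 0.217, 0.0806 and 0.0762 CPM at 0.5% O2. In osteoblast libraries it was at 1.27, 0.732, 1.49 and 50.5 CPM at 21% O2 and 108, 108 and 108 CPM at 0.5% O2. All 3 osteoblast libraries at 0.5% O2 lie above all 4 at 21% O2, of which the first 3 stayed at or below 1.49 CPM and the fourth reached 50.5 CPM. The difference between the changes was 3.31 ± 3.91 and not called (edgeR quasi-likelihood test, Benjamini-Hochberg adjusted p = 0.508). Without the fourth library it was 6.83 (adjusted p = 8.29e-10, same test). Within osteoblast cultures the oxygen difference was called with it included, at 2.98 ± 1.08 log2 units.

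Alpl, the alkaline phosphatase that frees phosphate for mineral, was at 1.77, 2.76, 1.52 and 44.5 CPM in osteoblast libraries at 21% O2 and 76.3, 80.8 and 93.0 CPM at 0.5% O2, with 4 counts in all 4 proliferating libraries at 21% O2 together and 1 at 0.5% O2. Each osteoblast library at 0.5% O2 exceeded each at 21% O2, where the fourth again stood above the others. The difference of 3.53 was not called (adjusted p = 0.751, edgeR quasi-likelihood test with Benjamini-Hochberg adjustment), and without the fourth library it was 6.20 (adjusted p = 0.009). Ibsp, bone sialoprotein, had 0 counts in all 7 proliferating libraries, so the difference between its changes could not be estimated in this fit (DESeq2 gave 5.47 with an adjusted p of 0.018). Its osteoblast level was 0.422, 0.517, 0.520 and 3.56 CPM at 21% O2 and 84.6, 77.8 and 70.8 CPM at 0.5% O2, without overlap, an oxygen difference of 5.91 ± 0.68 log2 units (adjusted p = 3.74e-04, edgeR, Benjamini-Hochberg). Bglap2 (an osteocalcin gene with near-identical neighbours, so uncertain in read assignment) and Mepe, a matrix phosphoglycoprotein, also had 0 counts in proliferating cultures and were 2.87 and 2.43 log2 units higher at 0.5% O2 in osteoblast cultures.

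Spp1, osteopontin, a phosphoprotein of bone matrix, reversed its change. It stood at 2074, 2067, 2128 and 2880 CPM in proliferating and 1107, 1058, 1074 and 1210 CPM in osteoblast libraries at 21% O2. At 0.5% O2 the values were 1906, 1959 and 2219 CPM and 5480, 5104 and 5145 CPM. The osteoblast libraries thus lie below all proliferating ones at 21% O2 and above all of them at 0.5% O2. The log2 change was -1.04 ± 0.10 and 1.37 ± 0.12, a difference of 2.41 ± 0.15 (adjusted p = 5.84e-09, edgeR quasi-likelihood test, Benjamini-Hochberg). Dmp1, an osteocyte matrix protein, reversed as well, from -1.47 at 21% O2 to 3.50 at 0.5% O2, at low levels, 7.83, 15.2 and 9.73 CPM in the osteoblast libraries at 0.5% O2.

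Among the 22 of 26 bone matrix and mineralisation genes tested, 6 differences were positive and 4 negative, with a median of 0.60, shares near or under those of all genes (28.9% and 25.3%). Without the fourth osteoblast library at 21% O2 they were 8 and 6 (all genes then, 32.5% and 27.9%). Collagen I, the bulk of bone matrix, was not among them: Col1a1 rose by 2.19 and 1.99 log2 units and Col1a2 by 1.88 and 1.85 at 21% and 0.5% O2. The rises of Sparc (osteonectin), Cdh11 (osteoblast cadherin) and Postn were smaller at 0.5% O2, by -1.08, -1.19 and -0.64. The falls of Phex, an endopeptidase of mineralised tissue, Slc20a1, a phosphate importer, Ank, a pyrophosphate exporter, and Enpp1, which makes pyrophosphate, were smaller as well, with differences of 1.89, 1.12, 0.70 and 0.98. The difference of Postn lost its call without the third proliferating library at 0.5% O2 (-0.53). Fam20c, the secretory pathway kinase of these phosphoproteins, had a difference of -0.95. Bglap, Ifitm5, Sost and Col24a1 were below the count filter.

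**Figure D2:**
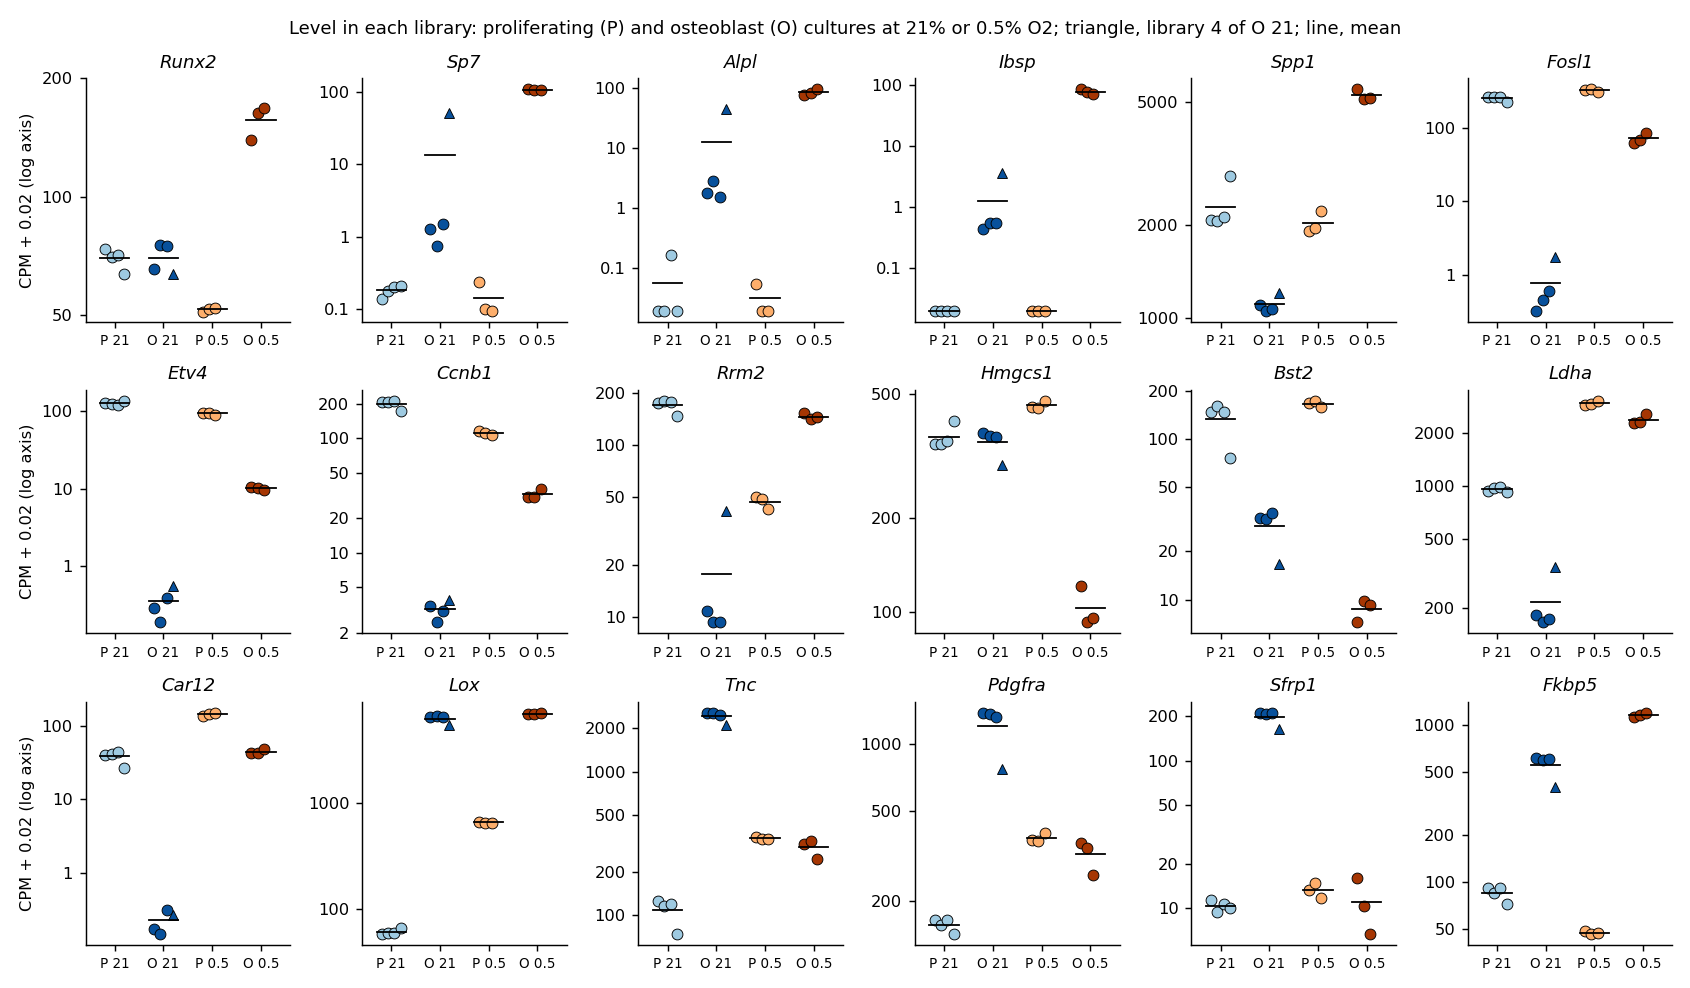
Level of 18 genes in each of the 14 libraries (CPM + 0.02, log axis), proliferating (P) and osteoblast (O) cultures at 21% or 0.5% O2; each point is a library, the triangle is the fourth osteoblast library at 21% O2 and the line is the group mean. Runx2, Sp7, Alpl, Ibsp and Spp1 are highest in osteoblast libraries at 0.5% O2, and Fosl1, Etv4 and Ccnb1 are lowest in those at 21% O2.

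Fosl1 (chr19:5447547-5455946, plus strand, GENCODE M21 on GRCm38) fell on differentiation at both oxygen levels, but far less at 0.5% O2. Proliferating libraries held 267, 267, 260 and 227 CPM at 21% O2 and 330, 333 and 308 CPM at 0.5% O2. Osteoblast libraries held 0.307, 0.431, 0.594 and 1.71 CPM at 21% O2 and 63.0, 68.1 and 84.7 CPM at 0.5% O2. The osteoblast groups are apart by more than the spread of either, and the fourth library at 21% O2 is the highest of its group. The log2 fall was -8.34 ± 0.30 at 21% O2 and -2.17 ± 0.23 at 0.5% O2, a difference of 6.17 ± 0.37 (adjusted p = 2.83e-08, edgeR quasi-likelihood test, Benjamini-Hochberg), and 6.98 without the fourth library. In osteoblast cultures the oxygen difference was 6.52, against 0.34 in proliferating cultures.

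Other members of AP-1, the Fos and Jun dimer that growth factors and stress induce, followed in part. Of 11 members tested, 6 had a positive called difference, with a list median of 1.57, and Jund had a negative one, -0.48 (all genes, 28.9% and 25.3%). Without the fourth osteoblast library at 21% O2, 7 were positive and 2 negative. Fos rose by 3.46 log2 units at 21% O2 and by 7.35 at 0.5% O2, where it reached 143 CPM. The falls of Fosb and Maff at 21% O2 were lost, that of Jun was reduced from -2.77 to -1.20, and Atf3, a stress-induced partner, reversed from -1.35 to 1.18. The call of Jund was lost without the first or second proliferating or the first osteoblast library at 0.5% O2 (-0.39, -0.40 and -0.41), and in a fit of all 28 libraries (-0.46). Junb differed by 0.58 and was not called, and without the fourth osteoblast library at 21% O2 it was, at 0.94.

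Genes that report ERK signalling, the cascade below the bFGF receptor, fell on differentiation at both oxygen levels, 16 of 18 at 21% O2 (all genes, 37.8%) and 15 at 0.5% O2 (32.9%). For 7 the difference was positive and for 1 negative (all genes, 28.9% and 25.3%), and without the fourth osteoblast library at 21% O2 for 12 and 2. Etv4, an ETS factor of the FGF pathway, was at 126, 122, 117 and 134 CPM in proliferating and 0.269, 0.172, 0.371 and 0.535 CPM in osteoblast libraries at 21% O2. At 0.5% O2 these were 93.8, 94.8 and 89.3 CPM and 10.5, 10.2 and 9.50 CPM, so no 2 groups overlap. Its fall was reduced from -8.48 ± 0.14 to -3.20 ± 0.11, a difference of 5.28 ± 0.19 (adjusted p = 3.88e-11, edgeR, Benjamini-Hochberg). The phosphatases Dusp4 and Dusp6, which switch ERK off, and the EGF receptor ligands Areg and Ereg had reduced falls too, with differences of 2.98, 2.26, 3.10 and 1.82. Egr1, an immediate early factor, gained a rise of 2.29. The other feedback genes included smaller differences of 0.43 for Spry4, -0.03 for Spred1 and 0.35 for Etv5, none of them called, and of 0.12, -0.19 and 0.06 without the fourth osteoblast library at 21% O2, not called either.

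Mitosis genes moved as one list. All 25 genes for spindle, kinetochore and mitotic kinases fell on differentiation at both oxygen levels (all genes, 37.8% and 32.9%), and for all 25 the fall was smaller at 0.5% O2 (all genes, 28.9% with a positive difference). The median fall was -5.22 log2 units at 21% O2 and -2.28 at 0.5% O2, and single differences ranged from 2.08 to 4.43. Ccnb1, the cyclin that starts mitosis, was at 207, 210, 212 and 173 CPM in proliferating and 3.42, 2.46, 3.08 and 3.88 CPM in osteoblast libraries at 21% O2. The values at 0.5% O2 were 116, 111 and 108 CPM and 31.1, 30.9 and 35.9 CPM. The 4 groups do not overlap. Its difference was 4.18 ± 0.16 (adjusted p = 4.80e-11, edgeR quasi-likelihood test, Benjamini-Hochberg). Ube2c, which loads ubiquitin for mitotic exit, had the largest difference of the list, 4.43, and Foxm1, the transcription factor that drives these genes, the smallest, 2.08. Mki67, the proliferation marker, stood at 10.3 CPM in osteoblast cultures at 21% O2 and 91.9 CPM at 0.5% O2, from 383 and 366 CPM in proliferating cultures. Of the 25, 18 were lower at 0.5% O2 in proliferating cultures (all genes, 26.6%), with a median oxygen difference of -0.47 there and 2.49 in osteoblast cultures. In the fourth osteoblast library at 21% O2 the list was a median of 0.66 log2 units above its companions, and without it all 25 differences stayed called, with a median of 3.06.

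Many promoters of these genes hold a short element, shown here because the list moved as a block. The letters TTTGAA, the core of the CHR element of cell-cycle promoters, occur on either strand in 15 of the 20 mitosis gene windows found in the RefSeq table for GRCm38.p6, each running from 250 bases before to 50 after a transcription start. Among the 13689 windows of the genes tested, 12.1% hold them, as do 126 of 393 windows (32.1%) of the genes whose fall was reduced and 85 of 602 (14.1%) of the genes whose fall was lost. A match is a description of the sequence only. The stretches below, chosen because each holds a match before the start, end at the last base before the RefSeq start or, in Cdk1 and Cdc20, before the first GENCODE exon, which begins further upstream, and capitals mark TTTGAA or its reverse complement TTCAAA.
Mki67 (chr7:135716380-135716499, minus strand): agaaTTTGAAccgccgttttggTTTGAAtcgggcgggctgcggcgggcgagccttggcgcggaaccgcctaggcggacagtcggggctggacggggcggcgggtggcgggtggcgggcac
Cdk1 (chr10:69352939-69353032, minus strand): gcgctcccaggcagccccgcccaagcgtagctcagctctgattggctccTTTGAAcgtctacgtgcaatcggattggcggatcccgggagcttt
Top2a (chr11:99024190-99024309, minus strand): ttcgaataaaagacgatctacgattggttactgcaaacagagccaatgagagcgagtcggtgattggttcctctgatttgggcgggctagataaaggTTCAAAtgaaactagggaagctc
Kif11 (chr19:37376262-37376381, plus strand): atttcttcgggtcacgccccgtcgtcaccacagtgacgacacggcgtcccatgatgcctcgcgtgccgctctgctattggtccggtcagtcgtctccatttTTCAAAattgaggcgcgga
Cdc20 (chr4:118437353-118437463, minus strand): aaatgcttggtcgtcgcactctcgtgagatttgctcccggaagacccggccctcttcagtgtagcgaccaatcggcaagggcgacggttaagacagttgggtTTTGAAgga
The matches begin 116 and 98 bases before the RefSeq start in Mki67 and 71, 23, 19 and 18 bases before it in Cdk1, Top2a, Kif11 and Cdc20. The differences between the changes of these 5 genes were 3.22, 2.50, 2.54, 3.01 and 3.35.

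Most DNA replication genes shared this direction. Of 27 genes, 25 had a positive difference (all genes, 28.9%), with medians of -3.32 for the change at 21% O2, -1.95 at 0.5% O2 and 1.62 for the difference. In this list 23 of 27 were lower at 0.5% O2 in proliferating cultures (median -1.17, all genes 26.6% lower), and 11 were higher in osteoblast cultures (median 0.46, all genes 30% higher). The helicase subunit gene Mcm4, for example, stood at 242 and 97.2 CPM in proliferating cultures at 21% and 0.5% O2 and at 33.3 and 34.2 CPM in osteoblast cultures. Rrm2, the inducible subunit of ribonucleotide reductase, reversed. It was at 176, 181, 178 and 148 CPM in proliferating and 10.8, 9.30, 9.36 and 41.3 CPM in osteoblast libraries at 21% O2. The levels at 0.5% O2 were 50.2, 48.4 and 42.3 CPM and 153, 141 and 145 CPM. The osteoblast libraries lie below the proliferating ones at 21% O2 and above them at 0.5% O2, and the fourth library at 21% O2 stands above its companions. The log2 change was -3.26 ± 0.44 and 1.64 ± 0.47, a difference of 4.90 ± 0.65 (adjusted p = 6.80e-05, edgeR, Benjamini-Hochberg), or 5.76 without that library. Cdt1, which licenses origins, and the G1/S cyclins Ccne1 and Ccne2 lost their falls of -3.74, -2.22 and -2.15. Cdc6 and Gins2 were not called, but Cdc6, a loader of the replicative helicase, was without the fourth osteoblast library at 21% O2, at 2.28 against 0.90 with it.

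Brakes of the cycle moved in both directions. The rise of the CDK inhibitor Cdkn1b (p27) at 21% O2, 1.45, was lost, and that of Cdkn1c (p57) was reduced from 5.14 to 4.14. Cdkn1a (p21) fell by 0.48 at 21% O2 and rose by 0.67 at 0.5% O2. Cyclin D1 (Ccnd1), a growth factor target, fell by 3.12 and 1.95. Of the 8 inhibitors and D cyclins tested, 3 differences were positive and 3 negative (all genes, 28.9% and 25.3%).

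Genes for the synthesis of sterols and fatty acids fell on differentiation at 0.5% O2 far more than at 21% O2. All 20 genes of the list had a negative difference, from -3.59 to -0.53, where 25.3% of all genes did. At 21% O2 the median change was -0.42, and at 0.5% O2, where all 20 fell (all genes, 32.9%), it was -2.10. By the classes above, 17 of the 20 gained a fall and Idi1 enlarged one. Without the fourth osteoblast library at 21% O2, Idi1 changed by -0.98 at 21% O2, under the size taken as a change, and its fall counted as gained. Hmgcs1, the first committed enzyme of the mevalonate pathway, was at 347, 347, 355 and 410 CPM in proliferating and 375, 366, 364 and 295 CPM in osteoblast libraries at 21% O2. Under 0.5% O2 it stood at 455, 449 and 474 CPM and 122, 93.0 and 95.9 CPM. The groups at 21% O2 overlap, and the osteoblast libraries at 0.5% O2 lie below all others. Its log2 change was -0.06 ± 0.09 and -2.15 ± 0.11, a difference of -2.09 ± 0.15 (adjusted p = 1.46e-08, edgeR quasi-likelihood test, Benjamini-Hochberg). The oxygen-using enzymes Sqle and Cyp51 and the late-acting reductase Dhcr7 had differences of -1.91, -1.81 and -2.45. In proliferating cultures 9 of the 20 were higher and 3 lower at 0.5% O2 (all genes, 26.7% and 26.6%), with a median of 0.18, against 19 lower in osteoblast cultures (all genes, 28.3%). Scd2, a fatty acid desaturase, was the exception in osteoblast cultures, where it differed by -0.02.

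Interferon-response genes fell at 0.5% O2, whereas at 21% O2 their changes were mixed. Of the 15 of 16 members tested, 8 fell and 3 rose at 21% O2 (all genes, 37.8% and 39.5%). At 0.5% O2 15 fell (all genes, 32.9%). For 14 the difference was negative (all genes, 25.3%), and the median change was -0.28 at 21% O2 and -2.74 at 0.5% O2. Bst2 (tetherin), an interferon-induced membrane protein, was at 146, 160, 148 and 75.6 CPM in proliferating and 32.0, 31.9, 34.5 and 16.7 CPM in osteoblast libraries at 21% O2. Cultures at 0.5% O2 had 167, 172 and 157 CPM and 7.22, 9.80 and 9.22 CPM. The 2 osteoblast groups do not overlap, and the fourth library of both groups at 21% O2 is the lowest of its group. The difference was -2.04 ± 0.38 (adjusted p = 6.44e-04, edgeR, Benjamini-Hochberg). The antigen-processing genes Tap1, H2-K1 and H2-D1 gained falls of -2.16, -1.99 and -1.88. In all, 14 members were higher at 0.5% O2 in proliferating cultures (median 0.92, all genes 26.7% higher). In osteoblast cultures 9 were lower and 1 higher (median -1.42, all genes 28.3% lower and 30% higher). Without the fourth osteoblast library at 21% O2, H2-K1 was 0.53 log2 units higher at 0.5% O2 in osteoblast and 2.44 higher in proliferating cultures. Ifit3 was not called (-0.68), and reads of Ifit1, Ifit3, H2-K1 and H2-D1, which have close relatives, are uncertain in assignment.

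**Figure D3:**
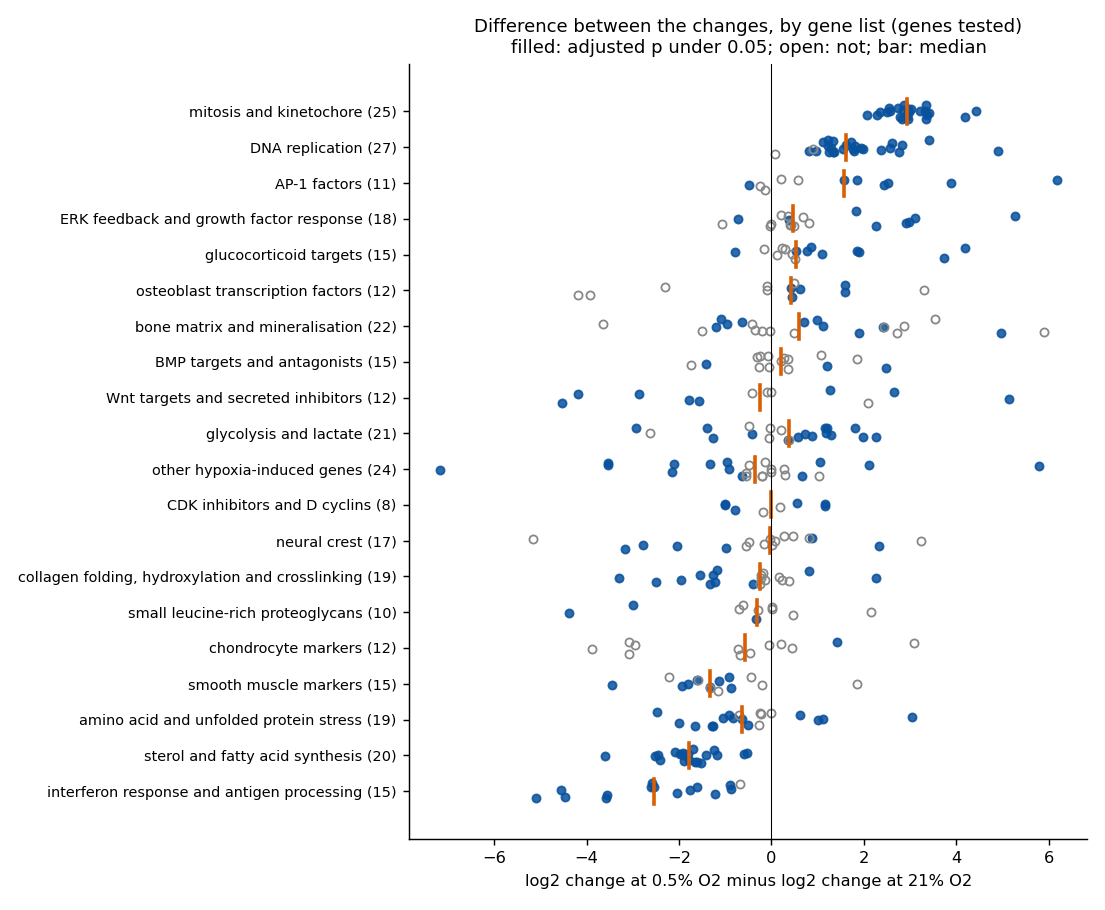
Difference between the changes (log2 change at 0.5% O2 minus log2 change at 21% O2, x axis) for each tested member of 20 gene lists, with the number tested after each name; filled points were called (adjusted p under 0.05) and the bar is the list median. All 25 mitosis genes lie to the right of 0 and all 20 sterol and fatty acid genes to the left, while most other lists spread to both sides.

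Glycolytic genes were higher at 0.5% O2 in both culture types, 19 of 21 in proliferating (all genes, 26.7%) and 19 in osteoblast cultures (30%). The difference between the changes was positive for 11 and negative for 4 (all genes, 28.9% and 25.3%), with a median of 0.38. By class, 6 lost and 3 gained a change (all genes, 10.4% and 4.77%). At 21% O2 13 of them fell on differentiation (all genes, 37.8%). Ldha, lactate dehydrogenase A, was at 928, 969, 989 and 924 CPM in proliferating and 183, 167, 175 and 346 CPM in osteoblast libraries at 21% O2. The values at 0.5% O2 were 2900, 2933 and 3034 CPM and 2265, 2297 and 2570 CPM. The groups do not overlap at either level, and the fourth osteoblast library at 21% O2 is the highest of its group. The fall of -2.13 ± 0.19 at 21% O2 shrank to -0.31 ± 0.21, under the size taken as a change, with a difference of 1.81 ± 0.28 (adjusted p = 1.02e-04, edgeR quasi-likelihood test, Benjamini-Hochberg). Hexokinase Hk2, enolase Eno1 and triose phosphate isomerase Tpi1 lost falls of -1.91, -2.66 and -1.79. Pfkp, a phosphofructokinase, lost a rise of 2.75. The glucose transporter Slc2a3 and aldolase Aldoc gained falls of -1.10 and -2.25. Counts of Gapdh, which has many processed copies in the genome, are uncertain.

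The core of the hypoxia response element, ACGTG or its complement CACGT, is shown for a pair of these promoters because glycolytic genes are its textbook carriers. It occurs in 14 of 30 windows of the glycolysis list (46.7%) and in 14 of 23 windows of the other hypoxia-induced genes (60.9%), against 24.9% of the windows of all genes tested. Capitals mark the matches, of which the first 2 in Ldha overlap.
Ldha (chr7:46845684-46845803, plus strand): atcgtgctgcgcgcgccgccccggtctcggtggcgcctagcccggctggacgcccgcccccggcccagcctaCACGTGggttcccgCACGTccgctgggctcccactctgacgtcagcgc
Hk2 (chr6:82774455-82774574, minus strand): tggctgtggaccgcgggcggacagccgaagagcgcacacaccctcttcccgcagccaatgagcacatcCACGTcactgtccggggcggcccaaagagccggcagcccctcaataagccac
They begin 48, 47 and 34 bases before the RefSeq start in Ldha and 52 bases before it in Hk2. By class, 179 of 602 windows (29.7%) of lost falls and 186 of 809 (23%) of lost rises held them. The RUNX core TGTGGT occurs in 7 of 27 windows of the bone matrix list (25.9%) and 12.2% of all windows, and the AP-1 site TGANTCA in 1 of 27 (3.7%) and 5.48% of all, both strands searched.

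Of the 24 other hypoxia-induced genes, 22 were higher at 0.5% O2 in proliferating and 21 in osteoblast cultures (all genes, 26.7% and 30%), and the difference between the changes was positive for 4 and negative for 9 (all genes, 28.9% and 25.3%). Car12, a carbonic anhydrase that HIF induces, was the extreme. It was at 40.4, 40.8, 44.4 and 26.9 CPM in proliferating and 0.154, 0.129, 0.297 and 0.249 CPM in osteoblast libraries at 21% O2. The levels at 0.5% O2 were 136, 143 and 150 CPM and 43.0, 42.5 and 48.0 CPM. The osteoblast libraries at 21% O2 lie apart from all others, at 0.297 CPM or less, and the fall of -7.47 ± 0.21 shrank to -1.69 ± 0.14, a difference of 5.79 ± 0.28 (adjusted p = 4.95e-10, edgeR, Benjamini-Hochberg). The opposite was seen for Egln3, a HIF prolyl hydroxylase, whose rise of 4.43 at 21% O2 was lost from a proliferating level of 506 CPM at 0.5% O2, and for Ero1a, an oxidase of protein folding, which gained a fall of -2.86. Bnip3 and the mitochondrial Fam162a differed by 0.00 and -0.02 and were not called.

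Enzymes that fold and crosslink collagen rose on differentiation at 21% O2, 18 of 19 (all genes, 39.5%), and the difference was negative for 9 and positive for 2 of the list (all genes, 25.3% and 28.9%). Without the fourth osteoblast library at 21% O2 it was negative for 10 and positive for 5. Lox, the lysyl oxidase that crosslinks collagen, was at 57.7, 58.3, 58.3 and 64.9 CPM in proliferating and 6574, 6688, 6663 and 5489 CPM in osteoblast libraries at 21% O2. Under 0.5% O2 it stood at 670, 656 and 653 CPM and 6979, 7006 and 7253 CPM. The end points are close, 0.16 ± 0.08 log2 units apart between the osteoblast groups, and the starting points differ by 3.46 ± 0.08. The rise was 6.73 ± 0.09 at 21% O2 and 3.42 ± 0.09 at 0.5% O2, a difference of -3.31 ± 0.11 (adjusted p = 1.44e-11, edgeR quasi-likelihood test, Benjamini-Hochberg). Loxl2 and the prolyl hydroxylase subunit P4hb had the same layout and lost their rises, with osteoblast oxygen differences of -0.08 and 0.14 and proliferating ones of 2.41 and 1.40. P3h1, a prolyl 3-hydroxylase, lost its rise differently, since it was 1.27 log2 units lower at 0.5% O2 in osteoblast cultures. P3h2 gained a rise of 3.13 from a proliferating level that was 2.15 lower.

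**Figure D4:**
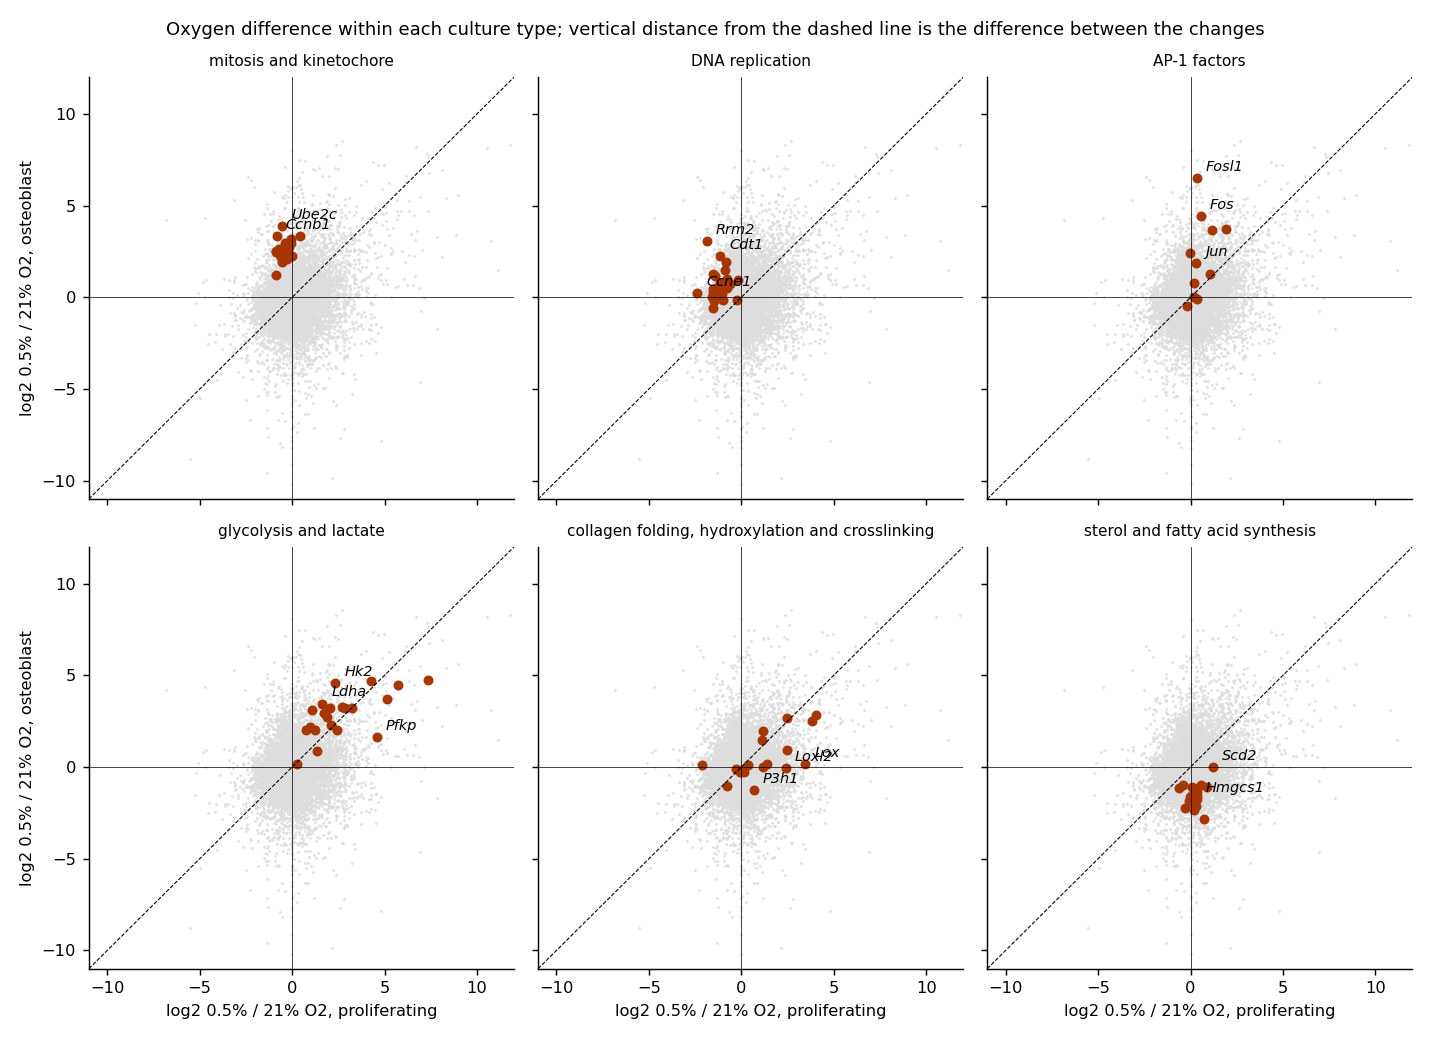
Oxygen difference (log2 of 0.5% over 21% O2) in proliferating cultures (x axis) and osteoblast cultures (y axis) for all genes tested (grey) and the tested members of 6 lists (brown); the vertical distance of a point from the dashed line is the difference between the changes. Mitosis, AP-1 and sterol genes depart from the line along the osteoblast axis, DNA replication genes mostly along the proliferating axis, and glycolytic genes are high on both.

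Which of the 2 oxygen differences accompanied a changed response was counted for all 4128 genes. For 1594 (38.6%) the oxygen difference was called with a size of at least 1 log2 unit in osteoblast cultures alone, for 1040 (25.2%) in proliferating cultures alone, for 487 (11.8%) in both and for 1007 (24.4%) in neither. The split depended on the class. Among the gained changes 370 of 739 (50.1%) had the osteoblast difference alone, and among the lost ones 500 of 1607 (31.1%) did, close to the 515 (32%) with the proliferating difference alone. Over all genes tested, the oxygen difference was called for 9015 (58.2%) in osteoblast and 8253 (53.3%) in proliferating cultures. With a size of at least 1 log2 unit, 3567 (23%) were called in osteoblast cultures, 1739 higher (11.2%) and 1828 lower (11.8%) at 0.5% O2. In proliferating cultures 2723 (17.6%) were, 1722 higher (11.1%) and 1001 lower (6.46%).

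Tnc, Pdgfra and Sfrp1 are single genes whose rise was lost. Tnc, tenascin C, a matrix glycoprotein of forming bone and tendon, was at 126, 117, 120 and 74.5 CPM in proliferating and 2579, 2546, 2476 and 2121 CPM in osteoblast libraries at 21% O2. Cultures at 0.5% O2 had 349, 341 and 340 CPM and 315, 331 and 248 CPM. The osteoblast libraries at 21% O2 stand above all others, and those at 0.5% O2 lie just below the proliferating ones. It rose by 4.47 ± 0.16 at 21% O2 and changed by -0.20 ± 0.16 at 0.5% O2, a difference of -4.68 ± 0.22 (adjusted p = 6.79e-10, edgeR, Benjamini-Hochberg). Pdgfra, the PDGF receptor of neural crest mesenchyme, was at 165, 158, 165 and 144 CPM and 1371, 1354, 1311 and 773 CPM at 21% O2. The values at 0.5% O2 were 373, 369 and 400 CPM and 363, 345 and 261 CPM. Its osteoblast groups do not overlap and the proliferating ones do not either, in opposite directions, with a difference of -3.17 ± 0.24 (adjusted p = 1.00e-07, same test). Sfrp1, a secreted Wnt inhibitor, went from 11.3, 9.39, 10.6 and 10.0 to 212, 208, 210 and 164 CPM at 21% O2. The levels at 0.5% O2 were 13.3, 14.8 and 11.6 CPM and 15.9, 10.3 and 6.66 CPM, with overlap, and the difference was -4.54 ± 0.30 (adjusted p = 4.07e-08, same test). The small leucine-rich proteoglycans, which organise collagen fibrils, mostly kept their rises: 10 of 10 rose at 21% O2 and 9 at 0.5% O2 (all genes, 39.5% and 33.7%), with medians of 7.36 and 7.06. Their difference was negative for 3 and positive for 0 (all genes, 25.3% and 28.9%), or for 4 and 1 without the fourth osteoblast library at 21% O2, and Podn alone lost its rise, of 3.47.

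Of 12 Wnt targets and inhibitors, 3 differences were positive, a share near that of all genes (28.9%), and 5 negative (all genes, 25.3%). Their median was -0.25, and 0.31 without the fourth osteoblast library at 21% O2. Notum, a secreted enzyme that inactivates Wnt, gained a rise of 5.77 to 167 CPM, and the effector Tcf7 one of 2.49. The inhibitor Dkk2 fell further, by 8.92 instead of 6.06, and the rise of Nkd2, another inhibitor, was reduced from 3.39 to 1.81. Among 15 BMP targets and antagonists, 2 were positive and 1 negative (all genes, 28.9% and 25.3%). The BMP antagonist Grem1 gained a rise of 1.35, Atoh8, a BMP-induced factor, rose by 7.44 instead of 4.95, and the rise of Id2 shrank from 4.83 to 3.41. The difference of Id2, -1.42, was -0.95 without the fourth osteoblast library at 21% O2 and was not called with limma-voom (adjusted p = 0.0903). The call of Atoh8 was lost without the third proliferating library at 0.5% O2 (2.24) and with limma-voom (2.68). Id1 and Id3, direct SMAD targets, were not called, with differences of -0.07 and 0.35, or 0.10 and 0.67 without the fourth osteoblast library at 21% O2. With replicates 1 to 3 of each group alone, both were called, at 0.28 and 0.85. BMP targets stood a median of 1.31 log2 units higher in the fourth osteoblast library at 21% O2 than in its companions. Without it 7 were positive and 1 negative (all genes then, 32.5% and 27.9%), the former including Nog, a BMP antagonist, at 2.15 (adjusted p = 0.00216, edgeR, Benjamini-Hochberg), against -1.74 and no call with it.

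Of 17 neural crest genes, 2 had a positive and 4 a negative difference (all genes, 28.9% and 25.3%; list median -0.04). Without the fourth osteoblast library at 21% O2 these counts were 5 and 5. Msx1, a jaw-patterning homeobox gene, rose by 4.75 at 21% O2 to 227 CPM and by 1.96 at 0.5% O2 to 13.9 CPM. Ets1, a factor of migrating crest, lost its fall of -2.39, and Crabp1, a retinoid-binding protein, fell by 8.29 instead of 6.25. Twist1, an inhibitor of RUNX2, had a difference of 0.87, and Tfap2a was not called. Sox9, a factor of crest and cartilage, was not called either (0.47), but was without the fourth osteoblast library at 21% O2 (1.23).

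Targets of the glucocorticoid receptor, which the dexamethasone of the osteogenic medium activates, rose at both levels, 14 of 15 at 21% O2 and 15 at 0.5% O2 (all genes, 39.5% and 33.7%). A positive difference was called for 8, and Tsc22d3 had a negative difference, -0.78 (all genes, 28.9% positive and 25.3% negative). Fkbp5, a chaperone of the receptor, was at 91.1, 84.1, 90.6 and 72.0 CPM in proliferating and 620, 597, 611 and 401 CPM in osteoblast libraries at 21% O2. Under 0.5% O2 it stood at 48.0, 46.4 and 46.8 CPM and 1124, 1156 and 1204 CPM, and no 2 groups overlap. The rise was 2.72 ± 0.12 and 4.63 ± 0.15, a difference of 1.90 ± 0.18 (adjusted p = 3.40e-07, edgeR, Benjamini-Hochberg). Glul, glutamine synthetase, rose by 2.71 instead of 1.61, and the kinase gene Sgk1 gained a rise of 2.42. The receptor itself, Nr3c1, differed by 0.54.

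In the list of amino acid and unfolded protein stress, 10 of 19 differences were negative and 4 positive (all genes, 25.3% and 28.9%; list median -0.64). The ATF4 target Trib3 and the unfolded protein factor Xbp1 lost rises of 2.24 and 1.14, and Chac1, which degrades glutathione, gained a fall of -1.06. The cystine importer Slc7a11 fell by 5.00 at 21% O2 and by 1.94 at 0.5% O2. The chaperone BiP (Hspa5) had a difference of -1.27.

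Markers of other cell types were read beside these results. Of 15 smooth muscle markers tested, 15 rose on differentiation at 21% O2 and 14 at 0.5% O2 (all genes, 39.5% and 33.7%), to a summed 10300 to 13000 CPM at 21% O2 and 5520 to 5980 CPM at 0.5% O2, from 1330 to 1400 CPM and 1530 to 1660 CPM in proliferating cultures. Their difference was negative for 8 and positive for 0 (all genes, 25.3% and 28.9%), the former including Tagln, Mylk and Smtn (-1.33, -1.60 and -1.81). Acta2, smooth muscle actin, was not called (-0.44), though it was without the fourth osteoblast library at 21% O2 (-0.28) or without 1 of several others. Of 12 chondrocyte markers tested, 11 rose on differentiation at 21% O2 and 9 at 0.5% O2 (all genes, 39.5% and 33.7%). Among their differences that of Sox5 alone was called (1.41), where 54.2% of all genes were. The whole list summed to 27.9 to 38.2 CPM in proliferating cultures at 21% O2 and 75.5 to 83.7 CPM at 0.5% O2. In osteoblast cultures it summed to 1970 to 3210 CPM at 21% O2, highest in the fourth library, and 1580 to 1590 CPM at 0.5% O2. Without that library 3 of 11 chondrocyte differences were positive, among them Col10a1, the collagen of hypertrophic cartilage, at 4.17 (not called with it, at 3.10), and 1 was negative (all genes then, 32.5% and 27.9%), and the list median was 0.33 against -0.58 with it. Adipocyte markers summed to 22.4 to 27.7 CPM and 210 to 261 CPM in osteoblast cultures. Of the 5 of 12 that were tested, 5 rose on differentiation at 21% O2 and 4 at 0.5% O2 (all genes, 39.5% and 33.7%). Their difference was positive for 2 and negative for 0 (all genes, 28.9% and 25.3%). Pparg, the adipogenic nuclear receptor, gained a rise of 3.38 and Plin4 enlarged one. Fabp4 and Cebpa were not called, at 0.53 and -1.47 without the fourth osteoblast library at 21% O2. Adipoq and Cd36 were at 0 counts in all 14 libraries. Haematopoietic markers summed to at most 17.3 CPM and endothelial ones to at most 25.6 CPM in any library, and the defining genes Itgam, Tyrobp, C1qa, Tie1 and Emcn had 0 counts throughout. Of the endothelial list Pecam1 and Erg passed the count filter. Erg, an ETS factor of endothelium and cartilage, was at 8.65 to 22.2 CPM in osteoblast libraries at 21% O2 and at most 0.0394 CPM in all others. Its rise at 21% O2 was called (adjusted p = 6.13e-10, edgeR, Benjamini-Hochberg), and the difference between its changes was not in this fit, but was by DESeq2 and limma-voom (-9.64 and -8.87). Neuron and glia markers summed to at most 28.8 CPM. Epithelial markers were carried by Krt19, at 322 CPM in proliferating cultures at 0.5% O2, whose difference was not called (-3.99, -0.07 without the fourth osteoblast library at 21% O2, and called without any 1 of the first 3 osteoblast libraries at 21% O2), and Cldn4 and Esrp1 had 0 counts. Of the 4 epithelial markers tested, 1 had a positive called difference and 0 a negative one (all genes, 28.9% and 25.3%). Without the fourth osteoblast library at 21% O2, the called marker was Epcam, at 5.62. Its changes there were -6.69 at 21% O2 and -1.08 at 0.5% O2. The part of these cell types in the results was not tested.

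The members of each class with the largest difference, among genes with at least 10 CPM in some group and the same class without the fourth osteoblast library at 21% O2, are named next. Besides Tnc, the largest lost rises were those of Notch3, a mural cell Notch receptor, from 2.01 to 95.6 CPM at 21% O2 and 40.2 to 73.0 CPM at 0.5% O2, and of the transporter-like Mfsd6. Lost falls were led by Eda2r, a TNF receptor family member (-4.55 at 21% O2, -0.43 at 0.5% O2), Luzp2 and the adenylate kinase Ak4. Gained rises were led by Slc6a4, the serotonin transporter (5.38 at 0.5% O2, to 24.5 CPM), the Ras-like Rerg and the adaptor Efs. Gained falls were led by Neat1, the long noncoding RNA that builds paraspeckles (0.91 at 21% O2, -3.20 at 0.5% O2), the glutamate receptor subunit Gria1 and the adhesion protein Tenm3.

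Among reversals, Agtr2, an angiotensin receptor, rose by 1.98 at 21% O2 and fell by 5.29 at 0.5% O2, the FGF signalling inhibitor Il17rd rose by 3.83 and fell by 1.10, and the IGF-binding protein Igfbp3 rose by 3.07 and fell by 1.84. In the other direction, the water channel Aqp5 changed from -4.35 to 1.59 and Ly6a (Sca-1), a surface marker of progenitors that has close relatives in the genome, from -3.17 to 2.30, beside Dmp1 above. Rises were most reduced for the hedgehog co-receptor Boc, Igdcc4 and the glutathione transferase Gstt1, and falls for Fosl1, Car12 and the interleukin receptor subunit Il18rap. Il18rap was at 0, 0.0431, 0 and 0.107 CPM in osteoblast libraries at 21% O2, a mean of 1 count. Its difference was 5.74, and 7.04 without the fourth osteoblast library at 21% O2. Boc and Gstt1 had a mean of 1.75 counts in proliferating libraries at 21% O2 and Tec 1.67 at 0.5% O2, so, as for Il18rap, means lie under the floor of 3 counts and the size and order of their differences rest on few counts. Enlarged rises were led by the laminin subunit Lamb3 (3.06 to 7.64, reaching 465 CPM), the kinase Tec and the small heat shock protein Hspb7. Enlarged falls were led by the EGF receptor ligand Btc (-3.18 to -7.91), the interferon-induced Oasl2 and the phosphatase Acpp. Gstt1 met the rule of at least 10 CPM in 1 group only through the fourth osteoblast library at 21% O2, with 6.68, 7.28, 7.87 and 24.8 CPM in that group. Its call was lost without the third proliferating library at 0.5% O2 (-3.79). A called difference (edgeR quasi-likelihood test, Benjamini-Hochberg) was a condition for entering a class, so all 30 genes have one by selection.

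Leaving out the fourth osteoblast library at 21% O2 raised the count of called differences from 8394 to 9297. Of 15378 genes tested both ways, 8255 were called in both, 117 only with it and 1042 only without it, and 0 of the 8255 changed sign. Without it 5002 differences were positive and 4295 negative. By class, 1509 genes were lost with and without it, 662 gained and 151 reversed. Sp7, Alpl and Nog above are genes whose difference was smaller or negative with it, and all 3 stood higher in it than in its companions.

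**Figure D5:**
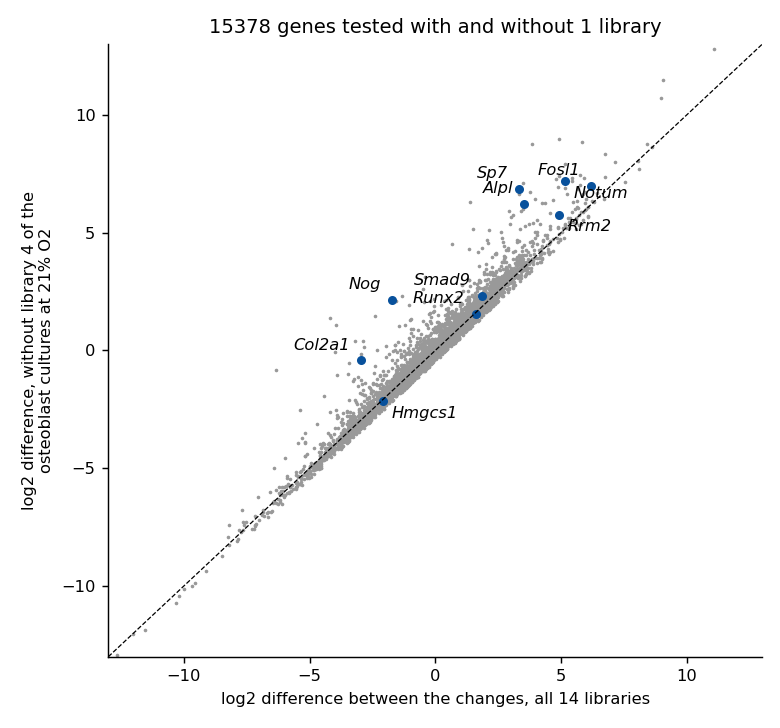
Difference between the changes with all 14 libraries (x axis) and without the fourth osteoblast library at 21% O2 (y axis), 1 point per gene, in log2 units; named genes are blue and the dashed line marks equality. Runx2 and Hmgcs1 lie near the line, while Sp7, Alpl and Nog lie above it.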

How the data were processed

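RNA was purified on columns and poly(A) libraries were made with a stranded kit, per the labels' protocols. The submitters' processing notes name HISAT2 2.0.5, StringTie 1.3.3b, featureCounts 1.5.0-p3 and the build mm10. The annotation release and the strand setting of the counting are not given in the sources used here. The authors deposited raw read counts per gene, 1 column for each of the 28 libraries, with 54429 genes; reads of paralogs, pseudogenes and overlapping genes may be split between them.

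The counts of the 14 libraries were fitted together with edgeR 4.0.16 (R 4.3.3; TMM scaling, robust quasi-likelihood test, two-sided, Benjamini-Hochberg adjustment over the 15486 genes that passed filterByExpr with at least 10 counts by group). The SE is the absolute log2 value divided by the square root of F. Gene lists came from textbook roles; for each class, the 3 genes of each direction with the largest difference were also named, with at least 10 CPM in some group, and predicted genes passed over. The members and lists were chosen with earlier results of these data known. Totals of 23.4 to 64.7 M counts limit precision for low genes. A group mean of 3 counts was taken as the floor when reading sizes, and the fit itself applied no floor. Symbols and coordinates came from GENCODE M21 and promoter windows from RefSeq (GRCm38.p6). Alternatives used DESeq2 1.42.0, limma 3.58.1 (voom), other scalings, filters and size thresholds, a replicate block and each library left out. The steps were tested on simulated data. Replicate numbers did not pair libraries: over 19 pairs across groups the residual correlation was -0.0549 to 0.0611. Some list members are counted but not reported here by name.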

Additional observations from a re-analysis of the deposited data

Results flagged for a closer look

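The count of 8394 genes whose osteoblast change differed between oxygen levels is itself a difference between groups by a tested contrast. Among the genes described library by library, the tested log2 difference between the changes was 1.60 for Runx2, 2.41 for Spp1, 6.17 for Fosl1, 5.28 for Etv4, 4.18 for Ccnb1, 4.90 for Rrm2, 1.81 for Ldha, 5.79 for Car12 and 1.90 for Fkbp5. It was -2.09 for Hmgcs1, -2.04 for Bst2, -3.31 for Lox, -4.68 for Tnc, -3.17 for Pdgfra and -4.54 for Sfrp1.

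A library far from the other 3 of its group at 21% O2 was found in 19 of 35 groups of 4 values tested. The rule is set to flag about 1 in 20 groups of independent values. These genes were chosen and share the same libraries, so the count cannot be set against that rate. In 11 of the 19 groups the library was the fourth osteoblast one: Sp7 at 50.5 CPM, Alpl at 44.5, Ibsp at 3.56, Rrm2 at 41.3 and Ldha at 346 CPM were high in it. Hmgcs1 at 295 CPM, Bst2 at 16.7, Lox at 5489, Pdgfra at 773, Sfrp1 at 164 and Fkbp5 at 401 CPM were low in it. In 7 groups it was the fourth proliferating library, with Spp1 at 2880 CPM, Hmgcs1 at 410 and Lox at 64.9 CPM high, and Fosl1 at 227, Ccnb1 at 173, Rrm2 at 148 and Bst2 at 75.6 CPM low. The last was Alpl in the third proliferating library, at 0.146 CPM. The other 3 libraries were at 0 CPM, where any count at all would have been flagged. The groups at 0.5% O2 hold 3 libraries each and cannot be tested this way.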

How the results depend on the processing

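Every count of genes in a class stayed within 1.5 times its value under DESeq2, limma-voom, both other scalings, no filter, replicates 1 to 3 only, a fit of all 28 libraries and each library left out. Called differences were 8715 with DESeq2 and 8490 with limma-voom. Leaving out 1 library at a time gave 7748 to 9297 called differences, 3908 to 4432 of at least 1 log2 unit, 1521 to 1753 lost, 700 to 785 gained, 141 to 193 reversed, 764 to 915 reduced and 246 to 301 enlarged changes, and 1458 to 1712 genes with the osteoblast oxygen difference alone. Requiring at least 10 counts in every library left 80 reversed and 164 enlarged changes among fewer genes tested. With a size of 0.5 log2 units in place of 1 the counts were 7109 called, 2503 lost, 1213 gained, 487 reversed, 1856 reduced and 620 enlarged, with 2527 for the osteoblast difference alone, and with a size of 2 they were 1612, 626, 316, 23, 263 and 84, with 691. Scaling by library size alone moved the median difference of all genes to -0.12 and the share of positive calls from 53.3% to 45.4%. Of the 128 called genes named in the text, 122 were called with the same sign in all alternatives that tested them, 6 lost the call in at least 1, and 0 changed sign. The genes named for the largest differences of their class had to be called also without the fourth osteoblast library at 21% O2. Part of this count was therefore set by their choice. Of 31 named genes not called, 18 were called in at least 1 alternative. Nog ranged from -2.13 to 2.15 with 1 library left out, the latter without the fourth osteoblast library at 21% O2, against -1.74 as reported, and was 2.31 with replicates 1 to 3 only, where Id1 turned from -0.07 to 0.28; the cause was not tested. With the replicate number as a block, although the numbers do not pair the libraries, 8522 genes were called, 8203 of them also without the block. Sp7, Col10a1, Dlx3 and Dlx5, not called as reported, were called with the block, at 4.3, 3.39, -3.24 and -3.59. Depth limits genes such as Alpl and Dlx5, with 0 to 5 counts in a proliferating group.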
